A study of Danio rerio with 5 samples.

Results

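Potassium channel genes were examined in vagus motor neurons of zebrafish embryos, the hindbrain neurons whose axons run in the vagus nerve. They were taken as every gene in the count files whose symbol begins with kcn in any case, which gave 125 of 31953 genes. These 125 identifiers carried 100 symbols, since 45 of them shared a symbol with another identifier and 83 had a symbol in capitals that lacks the a or b separating zebrafish duplicates. Genes that share a symbol are told apart below by identifier, and reads that aligned to several places were left out of the counts, so levels of close duplicates are uncertain. Their symbols alone decided membership, and no measured value did.

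All embryos carried the Tg(isl1:Kaede) transgene, in which sequences of isl1 drive Kaede, a fluorescent protein that light turns from green to red, and were 28 to 30 hours post fertilisation. Kaede was converted at 1 end, anterior or posterior, of the vagus column, and each library pooled 100 converted cells picked by hand after trypsin. There were 2 anterior libraries (B and G) and 3 posterior libraries (B, G and R), and the question was which genes differ between the ends. The labels do not say whether the libraries came from separate animals or sessions. The p-values thus rest on the spread between these libraries, partly fitted across genes, and that spread may be partly technical.

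Potassium channels let potassium leave or enter the cell and set the resting potential, the end of each action potential and the pace of firing. Voltage-gated channels open on depolarisation, calcium-activated channels couple firing to calcium entry, inward rectifiers and tandem-pore leak channels hold the membrane near rest, and auxiliary subunits change the gating or the surface level of the pore. Motor neurons of many vertebrates use all of these classes, and their channel sets change as the neurons mature. The roles given for single genes below are those known from mammals.

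Reads assigned to genes numbered 14932562 to 20088585 per library. Levels are given as CPM, the count per 1e+06 reads of the 11827 genes that passed the low-count filter described below, after trimmed-mean scaling. A gene was called detected in a library at over 3 counts, a floor worth 0.148 to 0.195 CPM. ISL1, the motor neuron gene behind the transgene, stood at 1805 to 2381 CPM in every library. CHAT, which makes acetylcholine, was at 5.43 and 36.1 CPM in anterior B and G and at 0, 11.1 and 10.3 CPM for posterior B, G and R. The 13 matched genes of the motor neuron list summed to 2786 and 3180 CPM in anterior B and G. For posterior B, G and R the motor neuron sums were 3657, 2347 and 3239 CPM. In that list PHOX2A was at 84.9 and 220 CPM in the anterior and 1466, 106 and 310 CPM in the posterior libraries. LHX4 was at 142 and 272 CPM in the anterior and 46.5, 55.9 and 105 CPM in the posterior libraries. Listed blood genes were at 0.0528 CPM in sum at most, immune genes at 0.118 CPM at most, while skin genes reached 60.8 CPM and vessel genes 97.0 CPM, both in anterior B. The vessel value rested on kdrl, with 1645 counts in anterior B and 0 in anterior G. Interneuron genes summed to 204 CPM in anterior G and to 17.6 to 55.5 CPM in the other libraries. Muscle genes reached 32.5 CPM, in posterior R. Glial genes summed to 135 and 511 CPM in anterior B and G and to 305, 404 and 377 CPM for posterior B, G and R. Progenitor genes, a list with cell cycle genes such as mki67 and PCNA, summed to 10137.5 and 6554 CPM in anterior B and G. For posterior B, G and R the progenitor sums were 6875, 8616 and 8120 CPM. The share of other cells in the pools was not tested.

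Most potassium channel genes were read in few libraries or in none. Of the 125 genes, 67 had 0 counts in all 5 libraries and 47 (37.6%) were detected in at least 1, where the share among all genes in the files was 50.3%. Of these 47 genes, 22 (46.8%) were detected in 1 library alone, against 19.9% of all detected genes. Detection in all 5 libraries was reached by 3 of the 47 (6.38%), against 37.5% of all detected genes. The 3 were kcnn1a, kcnk4a and KCNH4 (ENSDARG00000062565). Low abundance went with this pattern: 45 of the 47 averaged under 10 CPM, and KCNMA1 and kcnn1a were the 2 above. The mean covers all 5 libraries, so absence from some libraries itself lowers it. At a mean of 3 to 10 CPM, 49.5% of the library values of the 19 channel genes were at or under 3 counts, beside 45.0% for all 2928 genes of that abundance. At 1 to 3 CPM the shares were 70.9% of values for 11 channel genes and 56.4% for 1960 genes. Under 1 CPM they were 76% for 15 channel genes and 63.9% for 3117 genes.

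**Figure D1:**
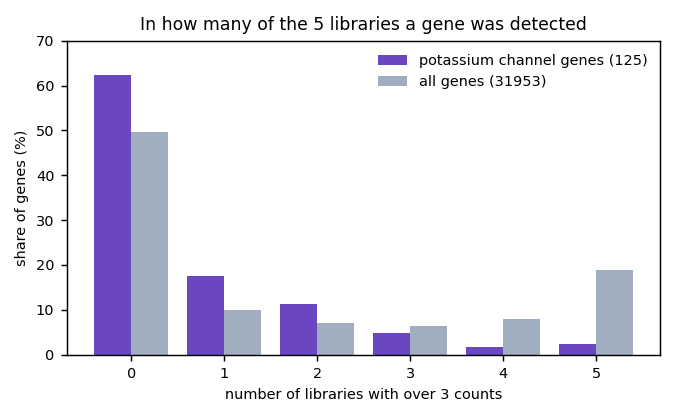
Share of genes (vertical axis, percent) detected at over 3 counts in 0 to 5 libraries (horizontal axis), for the 125 potassium channel genes and for all 31953 genes. Channel genes were detected in all 5 libraries in 2.4% of cases and all genes in 18.9%.

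The number of channel genes detected differed by library more than by group. Anterior B had 18 and anterior G 28, while posterior B, G and R had 13, 11 and 21. Anterior B lay within the posterior range, so the groups overlapped. Across all genes, 32.4% and 37.3% were detected in anterior B and G and 28.0%, 35.0% and 37.0% in posterior B, G and R. Posterior G, with the fewest channel genes, thus detected more genes in all than anterior B. The anterior libraries shared 11 channel genes, which is 61.1% of those in B and 39.3% of those in G. Anterior G and posterior R shared 13, which is 46.4% and 61.9% of theirs, and posterior B and G shared 4, which is 30.8% and 36.4%. Libraries of the same group therefore did not hold more alike sets than libraries of different groups in every pair. Fewer cells with a transcript and less of it per cell cannot be told apart in pools of 100 cells.

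**Figure D2:**
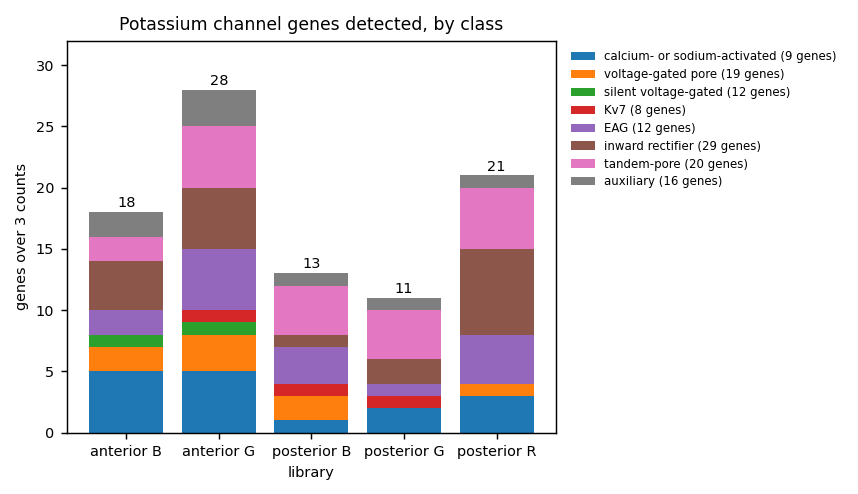
Number of potassium channel genes over 3 counts (vertical axis) in each library (horizontal axis), stacked by channel class, with the size of each class in the key. Anterior G held the most (28) and posterior G the fewest (11), with anterior B (18) between the posterior libraries.

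Classes differed in how many of their genes were detected at all. It was 6 of 9 calcium- or sodium-activated genes, 11 of 20 tandem-pore genes, 6 of 12 genes of the ether-à-go-go (EAG) family, 12 of 29 inward rectifiers, 5 of 16 auxiliary subunits, 2 of 8 Kv7 genes, 4 of 19 pore genes of the Kv1 to Kv4 families and 1 of 12 silent voltage-gated genes. All 7 Kv1 genes (KCNA1, KCNA2, KCNA4, kcna6a and kcna7, with 2 genes each of KCNA1 and KCNA2) had 0 counts in every library. Kv1 genes encode the low-threshold channels that cluster in the axon initial segment and beside nodes. None of the 3 Kv4 genes, which carry the transient A-type current, passed 3 counts, and KCND2 with 3 counts in anterior G was the one with any read.

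**Figure D3:**
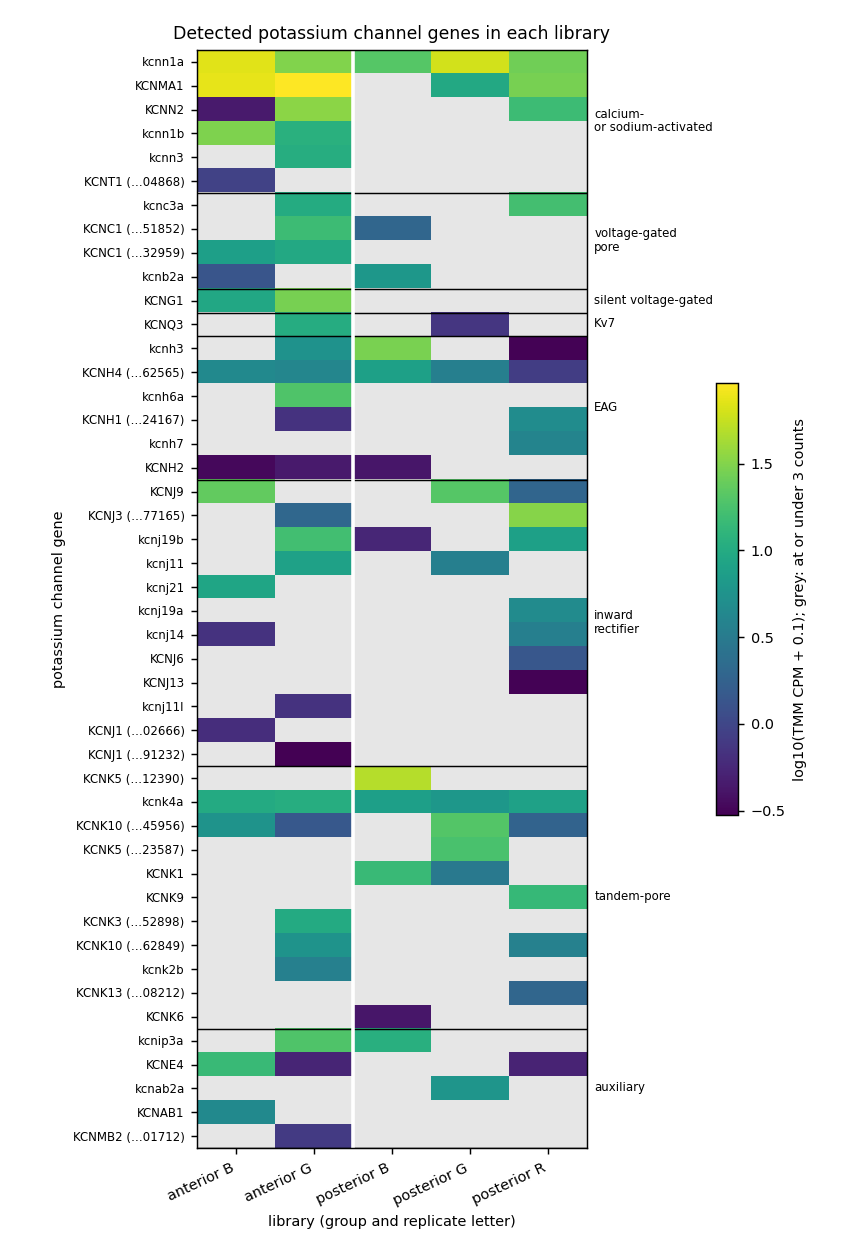
Level of 46 of the 47 detected genes (rows, grouped by class and ordered by mean level) in each library (columns), as log10(TMM CPM + 0.1), with grey for 3 counts or fewer. The 3 rows filled in every library are kcnn1a, kcnk4a and KCNH4, and kcnn1b, KCNG1 and KCNC1 (ENSDARG00000032959) are filled in both anterior libraries and in no posterior library.

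Posterior was then compared with anterior by the edgeR quasi-likelihood test over all 11827 genes that passed the low-count filter. Only 22 of the 125 channel genes passed it. The filter asks for about 10 counts in at least 2 libraries, so a gene read at a high level in 1 library was not tested, and a gene could pass through the group where it was high. No channel gene had an adjusted p under 0.05 and the smallest was 0.726, while of all tested genes 0 (0%) passed and their smallest adjusted value was 0.219. With an unadjusted p under 0.05 there were 4 channel genes against 6.49% of all tested genes. All 4 were higher in anterior cells, where the share of all tested genes was 4.21%, and none was higher in posterior cells, where it was 2.28%. They were KCNMA1, kcnn1b, KCNG1 and KCNC1 (ENSDARG00000032959). The last 3 had 0 counts in every posterior library. These 3 passed the filter through their anterior counts alone and had to be higher in anterior cells. Of the 22 genes, 15 had a higher fitted level in anterior cells, these 3 among them, against 52.1% of all tested genes. Both counts are therefore a description only. The median log2 fold change, posterior minus anterior, was -0.88 for the 22 genes and -0.05 for all tested genes. Setting the 3 genes at 0 in every posterior library to their floor also gives -0.88, which is no check, since their bounds lie below the median in any case. Without anterior G, the median over the 34 channel genes then tested was 5.53, beside 0.45 for all genes tested there. With 1 anterior library left, the filter asks for about 10 counts in 1 library only. Genes read in a single library then entered, so the 2 medians of channel genes cover different sets. The sign of the median thus changed together with the set of genes.

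Of the calcium-activated channel genes, KCNMA1 (ENSDARG00000079840) encodes the pore of the BK channel, which opens on both calcium and depolarisation and shortens the action potential. Its level was 74.0 and 92.2 CPM in anterior B and G and 0, 9.32 and 28.2 CPM for posterior B, G and R. Both anterior libraries lay above all posterior ones. The anterior mean was 83.1 ± 12.8 CPM (SD, n = 2) and the posterior mean 12.5 ± 14.4 CPM (SD, n = 3), and the log2 fold change was -2.63 ± 0.94 (SE; adjusted p = 0.726 by edgeR). Without posterior B, the library with 0 counts, the log2 fold change was -2.07, and without posterior R it was -4.12. KCNMA1 no longer had an unadjusted p under 0.05 without anterior G, without posterior G, by DESeq2, by limma-voom or with the legacy form of the edgeR fit. One BK beta gene, KCNMB2 (ENSDARG00000001712), which alters the calcium response of the pore, passed 3 counts in anterior G alone, with 14 counts.

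SK channels open on calcium without voltage and carry the medium afterhyperpolarisation, which limits firing rate. The gene kcnn1a (ENSDARG00000091306) was read in every library, at 71.0 and 31.2 CPM in anterior B and G and 20.3, 61.7 and 26.5 CPM for posterior B, G and R. Groups overlapped, with a log2 fold change of -0.48 ± 0.84 (SE; adjusted p = 0.939 by edgeR). Its duplicate kcnn1b (ENSDARG00000023546) was at 30.4 and 11.2 CPM in anterior B and G, from 515 and 227 counts, and at 0 counts in all 3 posterior libraries. The anterior mean of 20.8 ± 13.5 CPM (SD, n = 2) was at least 115-fold higher than the posterior floor of 3 counts per library, a bound that covers the counting of reads only (edgeR adjusted p = 0.726). DESeq2, which called 252 of all 11827 tested genes, gave an adjusted p of 0.0189. Of the 22 tested channel genes DESeq2 called 2, kcnn1b and KCNG1, and gave no adjusted p for 8. Both called genes had 0 counts in all posterior libraries, so their direction was fixed. The unadjusted edgeR p was above 0.05 without anterior B and without any 1 of the posterior libraries. The level of KCNN2 (ENSDARG00000014939) was 0.354 and 34.1 CPM in the anterior and 0, 0 and 14.9 CPM in the posterior libraries. For kcnn3 (ENSDARG00000019753) there were 215 counts in anterior G and 0 counts in the others. The last kcnn gene, kcnn4, had 0 counts throughout.

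Summed over its 9 genes, the calcium- or sodium-activated class stood at 177 and 179 CPM in the anterior libraries and at 20.3, 71.0 and 69.7 CPM for posterior B, G and R. Both anterior libraries lay above all posterior ones. The class took 65.9% and 49.8% of channel reads in anterior B and G and 13.0%, 46.9% and 39.4% in posterior B, G and R. The other 116 channel genes summed to 91.3 and 181 CPM in the anterior and 136, 80.3 and 107 CPM in the posterior libraries, and these overlapped. Over all 125 genes the sums were 268 and 361 CPM in the anterior and 157, 151 and 177 CPM in the posterior libraries, without overlap. Separation was not particular to this class. The silent voltage-gated sum, chiefly KCNG1, was 9.56 and 28.7 CPM in the anterior and 0.195, 0 and 0 CPM in the posterior libraries. The auxiliary sums, given below, did not overlap either. The sodium-activated pore gene KCNT1 (ENSDARG00000104868) had 14 counts in anterior B and 0 elsewhere.

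**Figure D4:**
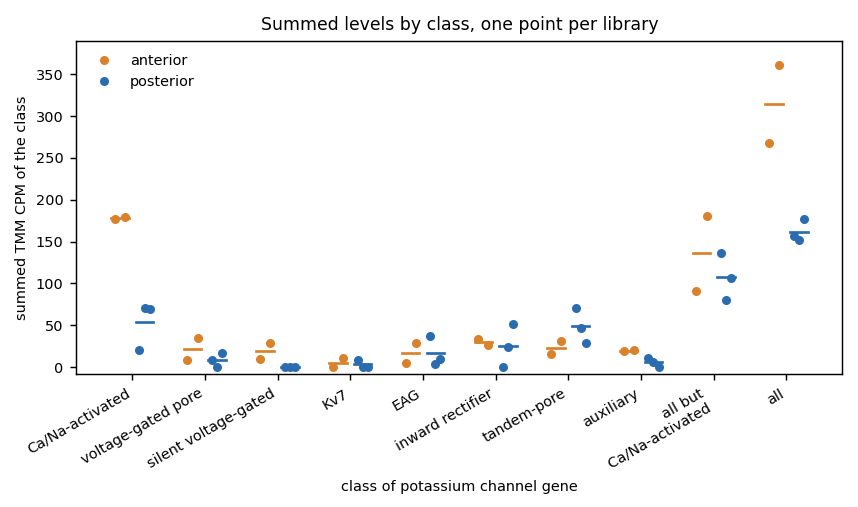
Summed CPM of each channel class (vertical axis) with 1 point per library and a bar at the group mean. The calcium- or sodium-activated class separates the groups (177 and 179 CPM against 20.3 to 71.0 CPM), and the sum of all other channel genes does not (91.3 and 181 CPM against 80.3 to 136 CPM). The silent voltage-gated class, the auxiliary class and the sum of all channel genes also separate the groups.

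Kv3 channels open at high voltage and close fast, which lets neurons fire at high rates. KCNC1 (ENSDARG00000032959) was at 7.55 and 9.30 CPM in anterior B and G, from 128 and 188 counts, and at 0 counts in each posterior library. Its anterior mean of 8.43 ± 1.24 CPM (SD, n = 2) was 46.6 times the mean posterior floor of 3 counts per library, which covers counting only (edgeR adjusted p = 0.726). Its unadjusted edgeR p was above 0.05 without either anterior library, without posterior G and without posterior R. The other KCNC1 gene (ENSDARG00000051852) did not follow the groups, at 0 and 15.2 CPM in the anterior and 1.88, 0 and 0 CPM in the posterior libraries. The Kv3 gene kcnc3a (ENSDARG00000055855), was at 0 and 10.0 CPM in the anterior and 0, 0 and 16.6 CPM in the posterior libraries. Each of the 3 genes thus had its own set of libraries, and anterior G was the library that held all of them.

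KCNG1 (ENSDARG00000099038) encodes a silent subunit, which forms no channel alone and changes the gating of Kv2 pores. It was at 9.26 and 28.7 CPM in anterior B and G, from 157 and 579 counts, and at 0 counts in all posterior libraries. The anterior mean of 19.0 ± 13.7 CPM (SD, n = 2) was 105 times the mean posterior floor of 3 counts per library, which covers counting only (edgeR adjusted p = 0.726). DESeq2 gave an adjusted p of 0.0324, and the unadjusted edgeR p was above 0.05 without anterior G and without any 1 of the posterior libraries. The Kv2 gene kcnb2a (ENSDARG00000038862) was at 1.24 and 0 CPM in the anterior and 6.04, 0 and 0 CPM in the posterior libraries. In anterior G, where KCNG1 was highest, kcnb2a had 0 counts. The Kv2 auxiliary gene AMIGO1 (ENSDARG00000079620) was at 19.9 and 0 CPM in the anterior and 34.5, 0 and 0 CPM in the posterior libraries, which are the libraries that held kcnb2a. The other 11 silent genes did not pass 3 counts in any library.

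Detection in both anterior and no posterior libraries was thus found for kcnn1b, KCNG1 and KCNC1 (ENSDARG00000032959), 3 of the 47 detected channel genes (6.38%), against 1.69% of all detected genes. Detection in all posterior and no anterior libraries was found for 0 of the 47, against 1.03% of all detected genes. Among the 22 tested genes, 5 had anterior libraries above all posterior ones without overlap, against 12.3% of all tested genes, and 0 had the reverse, against 9.57%. These 5 were KCNMA1, kcnk4a and the 3 genes just named, which passed the low-count filter through their anterior counts alone and so had to differ. The count of 5 is therefore a description only. Levels of neuronal differentiation genes moved with these genes. The 20 matched genes of that list summed to 6469 and 9540 CPM in anterior B and G and to 4957, 5289 and 4573 CPM for posterior B, G and R. Of its 16 tested genes, 7 had an unadjusted edgeR p under 0.05. All 7 were higher in anterior cells, where the share of all tested genes was 4.21%. Among the 7, INA (ENSDARG00000053248) had 0 counts in every posterior library. INA passed the filter through its anterior counts alone and had to be higher there, so the count of 7 is a description only. The part of neuronal differentiation in the channel differences was not tested.

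**Figure D5:**
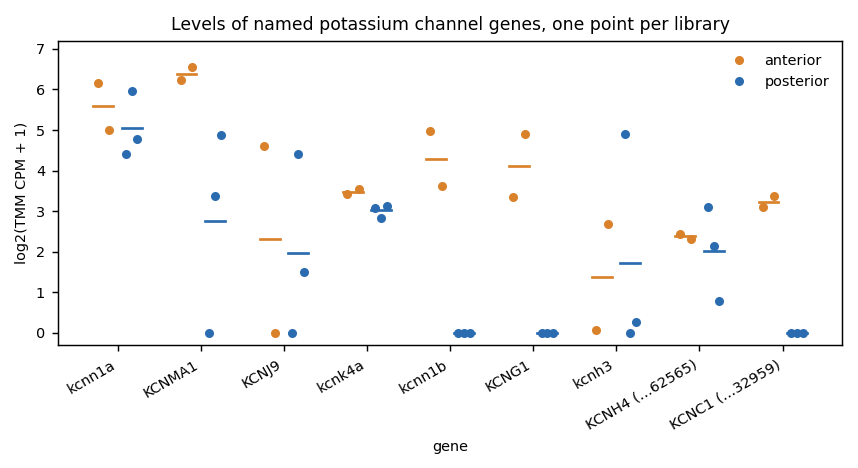
Levels of 9 channel genes as log2(TMM CPM + 1), vertical axis, with 1 point per library and a bar at the mean of the log2 values for each group. KCNMA1, kcnn1b, KCNG1, KCNC1 (ENSDARG00000032959) and kcnk4a have both anterior points above all posterior points, and kcnk4a shows the narrowest range.

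Tandem-pore (K2P) genes encode leak channels that set the resting potential. Of these, kcnk4a (ENSDARG00000103286), the gene of the stretch-sensitive channel TRAAK, was the one gene detected in every library, at 9.73 and 10.6 CPM in anterior B and G and 7.46, 6.15 and 7.81 CPM for posterior B, G and R. Both anterior values lay above the posterior ones. The anterior mean was 10.2 ± 0.64 CPM (SD, n = 2) and the posterior mean 7.14 ± 0.88 CPM (SD, n = 3), so values within each group lay close together. The difference was small beside the spread that edgeR fitted, with a log2 fold change of -0.51 ± 1.17 (SE; adjusted p = 0.956 by edgeR). Of the 20 K2P genes, 9 had 0 counts in all 5 libraries. Most other detected K2P genes passed 3 counts in only 1 or 2 libraries. The acid-sensitive KCNK5 pair showed it most clearly. KCNK5 (ENSDARG00000012390) had 748 counts (48.5 CPM) in posterior B and 0 in the other 4 libraries, and KCNK5 (ENSDARG00000023587) had 277 counts (17.6 CPM) in posterior G, 1 in posterior B and 0 elsewhere.

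KCNK9 (ENSDARG00000104563), an acid-sensitive TASK channel gene, had 259 counts in posterior R and 0 elsewhere, while its relative KCNK3 (ENSDARG00000052898) had 199 counts in anterior G and 0 elsewhere. KCNK1 (ENSDARG00000017254), of the weakly conducting TWIK type, was at 0.177 and 0 CPM in the anterior and 14.5, 2.92 and 0 CPM in the posterior libraries (edgeR adjusted p = 0.753). The TREK-type gene KCNK10 (ENSDARG00000045956) was found in 4 libraries, at 5.55 and 1.34 CPM in the anterior and 0, 19.8 and 1.74 CPM in the posterior libraries. The other KCNK10 gene (ENSDARG00000062849) had 112 counts in anterior G, 68 in posterior R and 0 elsewhere. Of the remaining detected K2P genes, kcnk2b had 71 counts in anterior G alone, KCNK13 (ENSDARG00000008212) had 36 in posterior R alone and KCNK6 had at most 5 in any library. These genes show no common library. The class sum was 15.5 and 31.0 CPM in the anterior and 70.9, 46.5 and 28.8 CPM in the posterior libraries, with anterior G above posterior R. In posterior B, 1 gene supplied most of that sum, the KCNK5 gene with 748 counts.

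The EAG family holds voltage-gated channels of the EAG, ERG and ELK types. KCNH4 (ENSDARG00000062565), an ELK-type gene expressed mainly in the brain in mammals, was read in all libraries, at 4.42 and 4.01 CPM in the anterior and 7.66, 3.42 and 0.739 CPM in the posterior libraries. The anterior values fell inside the posterior range (log2 fold change -0.17 ± 1.45, SE; adjusted p = 0.993 by edgeR). The second ELK gene, kcnh3 (ENSDARG00000069560), was at 0.059 and 5.44 CPM in the anterior and 28.9, 0 and 0.211 CPM in the posterior libraries, with a log2 fold change of 1.60 ± 2.13 (SE; adjusted p = 0.906 by edgeR). Its value was 0.73 without anterior B and 7.08 without anterior G, and without posterior B, which held 446 of its counts, it did not pass the filter. Among the ERG-type genes, kcnh6a (ENSDARG00000001803) had 383 counts in anterior G and 0 elsewhere. For kcnh7 (ENSDARG00000062687) there were 74 counts in posterior R and 1 in anterior G. KCNH2 (ENSDARG00000029881), best known for repolarising the heart, had at most 7 counts in any library. KCNH1 (ENSDARG00000024167), an EAG-type gene, had 12 counts in anterior G, 90 in posterior R and 0 elsewhere.

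Kv7 channels carry the M-current, which damps repetitive firing. KCNQ3 (ENSDARG00000060085), a neuronal member of that family, was at 0 and 10.3 CPM in the anterior and 0, 0.634 and 0 CPM in the posterior libraries (edgeR adjusted p = 0.728). The highest value was thus in anterior G, and the groups overlapped.

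Inward rectifiers pass potassium more easily into the cell than out. The G-protein-gated (GIRK) genes, whose channels slow firing after transmitter receptors act, differed from library to library. KCNJ9 (ENSDARG00000061636) was at 23.4 and 0 CPM in the anterior and 0, 20.2 and 1.85 CPM in the posterior libraries, with a log2 fold change of -0.61 ± 1.71 (SE; adjusted p = 0.968 by edgeR). KCNJ3 (ENSDARG00000077165) was at 0.059 and 1.93 CPM in the anterior and 0, 0 and 32.2 CPM in the posterior libraries, and KCNJ6 (ENSDARG00000058985) passed 3 counts in posterior R alone, with 25. Posterior R was thus the library that detected all 3 of these GIRK genes, and posterior B detected none of them. The groups overlapped for each.

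The gene of the ATP-sensitive pore, kcnj11 (ENSDARG00000051880), was at 0 and 7.82 CPM in the anterior and 0, 3.42 and 0 CPM in the posterior libraries. Its regulatory partner, the sulfonylurea receptor gene ABCC8 (ENSDARG00000051879), was at 45.8 and 1.93 CPM in the anterior and at 0 in all posterior libraries (edgeR adjusted p = 0.726). Anterior G was the library with over 3 counts of both. Of the inward rectifiers without a role given here, kcnj19b (ENSDARG00000062672) was at 0 and 16.1 CPM in the anterior and 0.454, 0 and 7.60 CPM in the posterior libraries. Also without a role given here, kcnj19a had 88 counts in posterior R alone, and kcnj21 had 146 in anterior B alone. For kcnj14 there were 10 counts in anterior B, 66 in posterior R and 0 elsewhere. The other inward rectifiers that passed 3 counts, kcnj11l, KCNJ13 and 2 of the 7 KCNJ1 genes, had at most 12 counts in any library. The glial channel genes named KCNJ10 did not pass 3 counts in any library.

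Auxiliary genes were few. The calcium sensor gene kcnip3a (ENSDARG00000034229), a KChIP subunit of Kv4 channels, was at 0 and 18.8 CPM in the anterior and 10.9, 0 and 0 CPM in the posterior libraries. KCNE4 (ENSDARG00000068257), whose product inhibits several Kv channels, was at 14.5 and 0.445 CPM in the anterior and 0, 0 and 0.422 CPM in the posterior libraries. Of the Kv beta genes, whose products bind Kv1 pores, KCNAB1 (ENSDARG00000008140) had 75 counts in anterior B and 3 in anterior G, and kcnab2a (ENSDARG00000087247) had 92 in posterior G and 2 in posterior R. The class summed to 19.1 and 20.1 CPM in the anterior and 10.9, 5.89 and 0.633 CPM in the posterior libraries, without overlap. Different genes made up the anterior sums, chiefly KCNE4 in B and kcnip3a in G.

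Genes outside the family that work with potassium channels were taken as a list of 60 symbols, which matched 55 genes (auxiliary proteins, proteins that cluster channels on the axon, hyperpolarisation-activated channels, and pumps and transporters that set the potassium and chloride gradients). Of the 31 tested, 1 had an unadjusted edgeR p under 0.05 and was higher in posterior cells, where the share of all tested genes was 2.28%. Another 4 were higher in anterior cells, beside 4.21% of all tested genes. Their median log2 fold change was 0.16. None had an adjusted p under 0.05. The anterior 4 were ABCC8, NCS1, cntn2 and atp1a3a. With 0 counts in every posterior library, ABCC8 passed the filter through its anterior counts alone and had to be higher there. The count of 4 is therefore a description only. NCS1 (ENSDARG00000055229), a calcium sensor that also acts on Kv4 channels, was at 55.0 and 15.3 CPM in the anterior and 0, 5.39 and 0 CPM in the posterior libraries (edgeR adjusted p = 0.726). The adhesion gene cntn2 (ENSDARG00000000472), which holds Kv1 channels beside nodes, was at 95.6 and 62.1 CPM in the anterior and 19.5, 1.46 and 12.1 CPM in the posterior libraries (edgeR adjusted p = 0.726).

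Both copies of the neuronal sodium-potassium pump subunit had an unadjusted p under 0.05, in opposite directions. The level of atp1a3a (ENSDARG00000018259) was 363 and 340.3 CPM in the anterior and 80.7, 75.4 and 173 CPM in the posterior libraries, a log2 fold change of -1.66 ± 0.49 (SE; adjusted p = 0.726 by edgeR). That of atp1a3b (ENSDARG00000104139) was 25.1 and 0 CPM in the anterior and 36.5, 172 and 56.8 CPM in the posterior libraries, a log2 fold change of 2.92 ± 1.18 (SE; adjusted p = 0.726 by edgeR). Neither pair of groups overlapped. Of the hyperpolarisation-activated channels, which carry the pacemaker current, hcn2b (ENSDARG00000061665) was at 0 and 1.19 CPM in the anterior and 57.6, 0 and 11.3 CPM in the posterior libraries.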

How the data were processed

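Each library's file, as the authors deposited it, holds raw read counts by Ensembl identifier, without normalization. The submitters' processing notes name bcl2fastq 1.8.4, TopHat2 2.1.0, HTSeq 0.6.1 and the genome build GRCz10, and the annotation release and use of strand are not given in the sources used here. Without strand, genes that overlap on opposite strands cannot be told apart. Closing lines for reads given to no gene (27.5% to 31.0% of each file) were left out. No molecular identifiers are described, so floors cover counting error only.

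Symbols were paired with 26121 of 31953 identifiers through a table of gene names. Coordinates, transcript lengths and sequences were not used here, so CPM is not per length. CPM served between genes to pick the genes named in each class, order heatmap rows and group genes by abundance. It was also summed over genes, and the genes that made up most of a sum were named. Longer transcripts can weigh more in these sums and in the shares of channel reads. Otherwise CPM was compared within a gene or class across libraries.

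Counts were tested with edgeR 4.0.16 in R 4.3.3 (TMM, filterByExpr with minimum count 10 and minimum total 15, estimateDisp, glmQLFit with legacy set to FALSE, glmQLFTest), two-sided, with Benjamini-Hochberg adjustment over all 11827 tested genes and a threshold of 0.05. The SE is the log2 fold change divided by the square root of the F statistic. The fit was run on simulated data in which the changed genes stood at higher levels than most channel genes. That run does not show how the fit behaves for channel genes. Alternatives were RLE factors, other low-count filters, DESeq2 1.42.0, limma-voom (limma 3.58.1), the replicate letter as a block, each library left out and, chosen after seeing the data, the legacy form of glmQLFit.

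Members and lists were chosen with earlier results of these data known. Genes named with a fold change had an unadjusted p under 0.05, led their class by mean CPM with over 3 counts in at least 3 libraries, or passed 3 counts in all 5 libraries or in exactly all libraries of 1 group, or were counted among 5 or fewer. Other channel genes were chosen after their values were seen, to describe each class. Listed partner genes were named at an unadjusted p under 0.05, and AMIGO1 and hcn2b after their values were seen. Some channel genes are counted in the totals and class sums and are not reported here singly.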

Additional observations from a re-analysis of the deposited data

How the results depend on the processing

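The edgeR fit called no gene of the whole table at an adjusted p under 0.05, and this held with RLE factors, both other filters, limma-voom, the legacy form and the replicate block, while DESeq2 called 252 genes and leaving out 1 library gave 0 to 7. Channel genes with an unadjusted p under 0.05 numbered 4, and 1 both with the replicate block over 4 libraries and in the same 4 libraries without it. Leaving out 1 library gave 0 to 3 (3 without anterior B, 1 without anterior G, 2 without posterior B, 0 without posterior G and 1 without posterior R). Every such gene, in each of these fits, was higher in anterior cells. For kcnn1b, KCNG1 and KCNC1 (ENSDARG00000032959) that direction was fixed, since they had 0 counts in all posterior libraries. Deviations of libraries that share a letter had a correlation of -0.0019 for B and 0.0063 for G, so the letters were not taken as pairs. With 1 anterior library left, that library was assumed to vary like the posterior ones. The median log2 fold change of channel genes ran from -1.01 to 5.53 with 1 library left out, and the high end is without anterior G. With 1 anterior library left, the filter also let in genes read in 1 library, so these medians cover different sets of genes. Genes detected in all libraries numbered 3 to 5 with 1 library left out, the 5 without posterior B. Reversed signs were found for genes with no call. For kcnh3, limma-voom gave -0.20. For KCNH4 the log2 fold change was 0.38 with the replicate block, 0.42 in the same 4 libraries without the block, and -1.06 to 0.42 with 1 library left out, the 0.42 without posterior R. For KCNJ9 it was 0.50 by limma-voom, 0.0019 with the replicate block and -3.40 to 9.96 with 1 library left out. For kcnn1a it was -1.08 to 0.20 with 1 library left out, and for both the high end is without anterior B. The cause of these changes was not tested. At these depths 3 counts were worth 0.148 to 0.195 CPM, and lower levels could not be detected.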
